A study of Mus musculus with 8 samples.

Results

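Iron balance in the body is set largely by the liver, and 10 genes of this system were read in the livers of young mice that carry an activating knock-in of RagC and of wild-type mice. The genes were *Hamp* and *Hamp2* (hepcidins), *Slc40a1* (the iron exporter ferroportin), *Tfrc* (transferrin receptor 1), *Trf* (transferrin), *Fth1* and *Ftl1* (ferritin heavy and light chains), *Bmp6* (a ligand that raises hepcidin), and *Id1* and *Smad7* (targets of that ligand). They were chosen by name, all 10 were found among the 14506 genes of the table, and all 10 were among the 11174 genes with a mean normalized read count of at least 10, which were tested. A normalized read count is the number of reads of a gene divided by a size factor that evens out depth between livers.

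Rragc+/+ livers came from 3 mice aged 3 months and 1 aged 2.5 months. RragcS74N/+ livers came from 2 mice aged 3 months, 1 aged 2.5 months and 1 aged 2 months. *Rragc* encodes RagC, one of the GTPases that carry amino acid signals to mTORC1. The S74N substitution was made by Cas9 editing, together with additional silent mutations, and RragcS74N/+ mice carry it in 1 allele. The paper treats them as full-body mutants. No treatment is given in the labels, nor is the sex of these mice, and the RNA is that of whole liver. In whole tissue, fewer cells of a type and less RNA per cell cannot be told apart. Libraries were made from 3′ ends, so a transcript is counted once whatever its length. Livers are numbered within each genotype in sample order, the numbers only name them, and the 4 values of a genotype are always given in that order. Replicate 4 of Rragc+/+ and replicate 3 of RragcS74N/+ are the 2.5-month-old mice, and replicate 4 of RragcS74N/+ is the 2-month-old mouse.

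As background, hepcidin is a small peptide hormone made by hepatocytes that blocks ferroportin and so holds iron inside cells. Its gene is switched on by BMP ligands from the sinusoidal endothelium, acting through SMAD proteins, and by interleukin 6, acting through STAT3. Iron regulatory proteins act on messenger RNAs, protecting that of *Tfrc* and blocking translation of the ferritins when iron is scarce, so ferritin protein need not follow ferritin RNA.

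Between 4313076 and 6632108 reads per liver could be recovered for the listed genes. *Rragc* itself was at 84.1 ± 20.4 in Rragc+/+ and 76.6 ± 7.32 in RragcS74N/+ livers (SD, n = 4 each), a level that cannot check a point substitution. Hepatocyte markers were abundant in every liver, with a summed normalized count of 238807 to 341896 in Rragc+/+ and 258348 to 439450 in RragcS74N/+ livers over 8 genes, among them *Alb* and *Ttr*. Erythroid markers, which show how much blood RNA a liver held, summed to 7783 to 14309 in Rragc+/+ and 7831 to 13349 in RragcS74N/+ livers over 6 genes, with *Hba-a2* and *Hbb-bs* the highest. The first principal component of the 11174 tested genes held 39.9% of the variance. It set the 2.5-month-old mice at the low end, with scores of -58.8 in Rragc+/+ replicate 4 and -45.5 in RragcS74N/+ replicate 3. At the high end were RragcS74N/+ replicates 1 and 4, with 48.8 and 61.1, and the other livers lay from -24.8 to 15.0. A score has no unit and is relative to the mean of the livers. Markers of kidney were lower in RragcS74N/+ livers, at a sum of 62.0 to 114 against 219.8 to 377 over 5 genes. The 2 tested ones were *Kap* and *Gpx3* (exact two-sided permutation p = 0.0286 for their mean log2 level). *Gpx3* was the 1 gene of all tested that passed adjustment (adjusted p in limma = 0.0411). The list was chosen with earlier results of these data known, so its p adds no independent support. Male-biased liver genes were also lower, as given beside *Hamp2*.

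The hepcidin pair is shown first by its upstream sequence, because the copies differ there in an element tied to the ligand and targets measured here. *Hamp* lies on chromosome 7 of GRCm38 from 30942368 to 30944032, and *Hamp2* from 30922372 to 30924681, both on the reverse strand and 17686 bases apart. The stretches below are the 150 bases before each RefSeq start site on GRCm38.p6, read 5′ to 3′ on the reverse strand, at chr7:30944030-30944179 for *Hamp* and chr7:30924182-30924331 for *Hamp2*. The first capitals mark the BMP-responsive element GGCGCC of *Hamp*, or the bases of *Hamp2* aligned with it, and the second capitals mark a STAT site.
Hamp: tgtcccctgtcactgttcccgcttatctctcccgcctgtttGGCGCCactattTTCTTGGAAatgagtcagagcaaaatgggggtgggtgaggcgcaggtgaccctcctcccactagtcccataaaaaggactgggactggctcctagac
Hamp2: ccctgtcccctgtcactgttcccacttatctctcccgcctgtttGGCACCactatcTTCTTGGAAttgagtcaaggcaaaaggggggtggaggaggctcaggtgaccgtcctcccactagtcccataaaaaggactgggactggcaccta
Over the 300-base promoter entries, from 250 bases before to 50 after the start site, the aligned bases of the copies were 92.9% identical. The element GGCGCC, 109 bases before the start site of *Hamp*, was GGCACC in *Hamp2*, which is G4A when positions are counted from 1 at the 5′ end of the element. The STAT site TTCTTGGAA, searched as TTCNNNGAA, was found in both, 97 bases before the start site of *Hamp* and 94 before that of *Hamp2*. Both patterns read the same on either strand, and their matches did not overlap. Of 32851 RefSeq promoter entries of this length, 11.9% held GGCGCC and 8.30% held TTCNNNGAA. Entries were found for 6 of the 10 genes, and outside *Hamp* the only match to GGCGCC among them was in 1 entry of *Tfrc*. A match describes the letters and not a bound site.

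*Hamp* did not differ between genotypes beyond the spread between livers. Its normalized read count was 10137, 4597, 7387 and 1979.7 in the Rragc+/+ livers and 6707, 7633, 5294 and 5966 in the RragcS74N/+ livers. All 4 RragcS74N/+ livers lay inside the range of the Rragc+/+ livers, whose highest value was 5.12 times the lowest, against 1.44 times among RragcS74N/+ livers. The means were 6025 ± 3519.8 and 6399.9 ± 1004 (SD, n = 4 each), or 0.31 ± 0.40 (SE) as log2 fold change, which here is always RragcS74N/+ over Rragc+/+ and is taken on counts plus 1 (95% interval -0.54 to 1.17, adjusted p in limma = 0.874). An exact two-sided permutation test of the log2 values over the 70 labellings gave p = 0.686. The direction rested on Rragc+/+ replicate 4, the 2.5-month-old wild type with the lowest level, since without it the log2 fold change was -0.14.

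*Hamp2*, the second mouse hepcidin gene, was the member with the largest difference, and its groups overlapped by 1 liver. Its normalized count was 343, 122, 359 and 388 in the Rragc+/+ livers and 375, 664, 863 and 2644 in the RragcS74N/+ livers. Of the RragcS74N/+ livers, 3 lay above every Rragc+/+ liver, and replicate 1 lay just under the highest of them. The means were 303 ± 122 and 1136 ± 1025 (SD, n = 4 each). On the log2 scale the difference was 1.65 ± 0.51 (SE) (95% interval 0.54 to 2.75). It passed an unadjusted p in limma (p = 0.00674) but not adjustment over all tested genes (adjusted p in limma = 0.846), nor the exact two-sided permutation test (p = 0.0571, where 0.0286 is the smallest p that 4 against 4 livers allow). Without the 2-month-old mouse the log2 fold change was 1.11, and among 3-month-old mice alone, 2 against 3, it was 1.01.

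Within RragcS74N/+ livers the order of *Hamp2* ran against age, from 375 and 664 at 3 months to 863 at 2.5 months and 2644 at 2 months. In Rragc+/+ livers the 2.5-month-old mouse also had the highest value, but only by 388 to 359. With age as a covariate the log2 fold change was 1.12. Age was not balanced between genotypes, so the 2-month value and the genotype cannot be told apart. The liver with the most *Hamp2* also had the lowest mean log2 level of 9 male-biased liver genes, at 9.40. That list stood at 12.2 ± 0.029 in Rragc+/+ and 11.2 ± 1.18 in RragcS74N/+ livers (SD, n = 4 each) and was lower in every RragcS74N/+ liver (exact two-sided permutation p = 0.0286). Of its 9 genes, 3 had an unadjusted limma p under 0.05 and 0 passed adjustment. The list was chosen with earlier results of these data known, so its permutation p adds no independent support. In summed normalized counts the list ran from 159422 to 220737 in Rragc+/+ and from 77669 to 170953 in RragcS74N/+ livers, and its part in the *Hamp2* values was not tested.

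The balance between *Hamp* and *Hamp2* differed between livers. The share of *Hamp2* in the reads of both was 3.27%, 2.58%, 4.64% and 16.4% in the Rragc+/+ livers and 5.29%, 8.0%, 14.0% and 30.7% in the RragcS74N/+ livers. The 3 highest shares were those of the mice under 3 months, in both genotypes. The log2 ratio of *Hamp2* to *Hamp* was -4.20 ± 1.29 in Rragc+/+ and -2.87 ± 1.29 in RragcS74N/+ livers (SD, n = 4 each), a difference within the spread (exact two-sided permutation p = 0.229). Over the 8 livers *Hamp* and *Hamp2* had an r of 0.11 (exact permutation p = 0.744) and a rho of -0.14 (exact permutation p = 0.752), as 1 of the 10 pairs of members described after *Smad7*. These shares were computed after the values had been seen. The longest transcripts of the genes, 410 and 437 bases, are 94.6% identical where they align and share an identical run of 87 bases, so reads between the copies are uncertain.

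**Figure D1:**
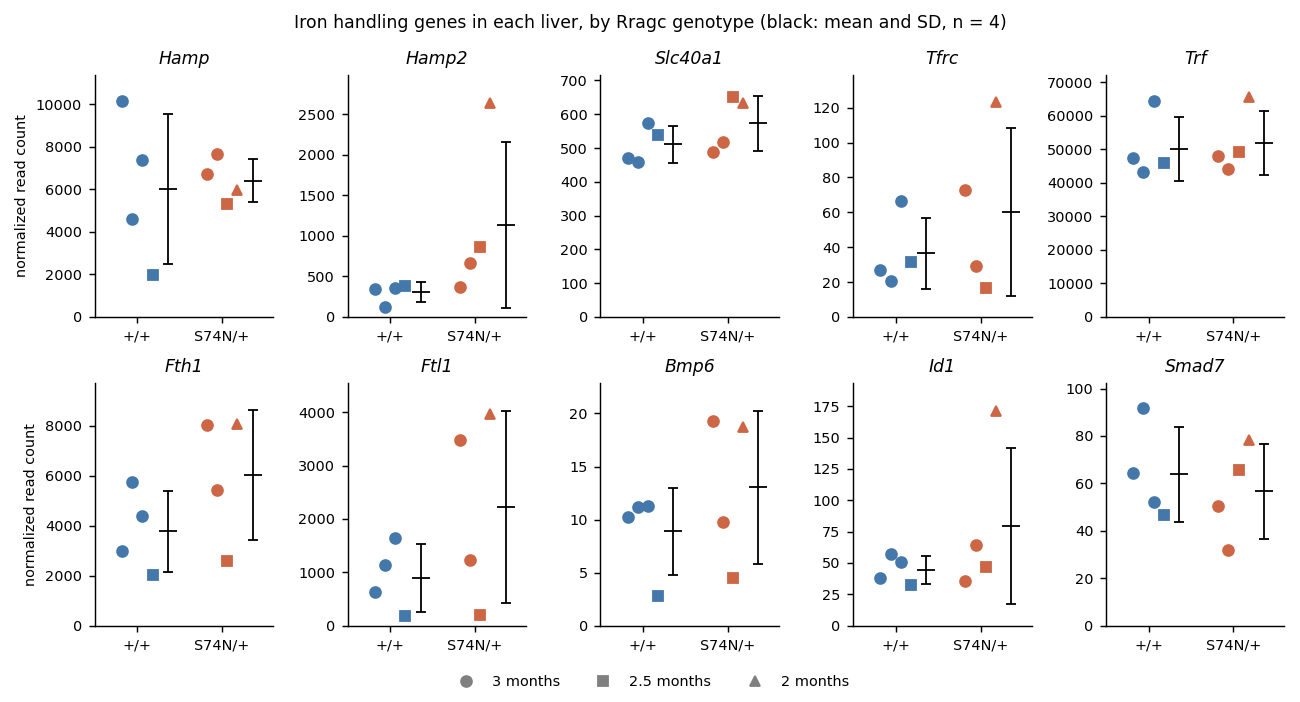
Normalized read count (vertical axes, linear, from 0) of each of the 10 genes in each liver, by genotype (horizontal axes); marker shapes give age and black bars the mean and SD of 4 livers. The genotypes overlap in every panel, *Hamp2* comes closest to separating, and the 2.5-month-old mice (squares) have the lowest *Fth1*, *Ftl1* and *Bmp6* values of their genotype.

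*Bmp6*, the endothelial ligand that signals iron load to hepatocytes, was the least abundant of the genes. Its normalized count was 10.3, 11.2, 11.3 and 2.80 in the Rragc+/+ livers and 19.3, 9.78, 4.46 and 18.8 in the RragcS74N/+ livers. Each value rests on 3 to 23 reads, so the levels carry a large counting error. Both 2.5-month-old mice were the lowest of their genotype. The means, 8.90 ± 4.09 and 13.1 ± 7.21 (SD, n = 4 each), correspond to 0.47 ± 0.65 (SE) as log2 fold change (95% interval -0.94 to 1.87, adjusted p in limma = 0.883). Markers of sinusoidal endothelium, its main source in liver, summed to 2350 to 2842 in Rragc+/+ and 2146 to 2573 in RragcS74N/+ livers over 10 genes, and none was at 0.

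*Id1*, a transcriptional regulator and direct BMP target, stood out in a single liver. It was at 38.2, 57.0, 50.9 and 32.7 in the Rragc+/+ livers and at 35.8, 64.0, 46.8 and 171 in the RragcS74N/+ livers. The high value is again that of the 2-month-old mouse, and the other 7 livers overlapped. The means were 44.7 ± 11.2 and 79.5 ± 62.3 (SD, n = 4 each), or 0.58 ± 0.43 (SE) as log2 fold change (adjusted p in limma = 0.846). Without that mouse it was 0.12, and among 3-month-old mice it was -0.0050.

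*Smad7*, an inhibitory SMAD that dampens the same signal, was the only member with a lower mean in RragcS74N/+ livers. Its count was 64.3, 91.7, 52.3 and 46.7 in the Rragc+/+ livers and 50.5, 32.0, 65.7 and 78.3 in the RragcS74N/+ livers. The groups overlapped over most of their range. The means were 63.8 ± 19.99 and 56.6 ± 19.98 (SD, n = 4 each), or -0.19 ± 0.33 (SE) as log2 fold change (95% interval -0.91 to 0.52, adjusted p in limma = 0.904). Without RragcS74N/+ replicate 2, its lowest liver, the value was 0.050.

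Whether the ligand, its targets and hepcidin varied together from liver to liver was asked with 10 pairs of members on the log2 scale over the 8 livers. *Hamp* and *Id1* had a Pearson's r of 0.19 (exact permutation p = 0.568) and a Spearman's rho of 0.19 (exact permutation p = 0.665). *Hamp* and *Smad7* had an r of -0.025 (exact permutation p = 0.949) and a rho of -0.29 (exact permutation p = 0.501). The highest value with *Hamp* was that of *Bmp6*, with an r of 0.66 (exact permutation p = 0.0791, adjusted over the 10 pairs 0.311) and a rho of 0.29 (exact permutation p = 0.501). It rested on the 2.5-month-old mice, Rragc+/+ replicate 4 and RragcS74N/+ replicate 3, without which r was -0.33 over 6 livers. It was 0.76 with the first principal component removed from both genes, a step chosen once the data had been seen (exact permutation p = 0.0332, adjusted over the pairs 0.166). *Id1* and *Smad7*, both BMP targets, had an r of 0.32 (exact permutation p = 0.425) and a rho of 0.38 (exact permutation p = 0.360). *Bmp6* had an r of 0.49 with *Id1* and 0.21 with *Smad7* (exact permutation p = 0.229 and p = 0.609), with a rho of 0.29 for each (exact permutation p = 0.501). After centring each genotype the r values of *Hamp* with *Id1*, *Smad7* and *Bmp6* were 0.11, 0.029 and 0.64. The 3-month-old mice number 5, too few to give r within that age.

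**Figure D2:**
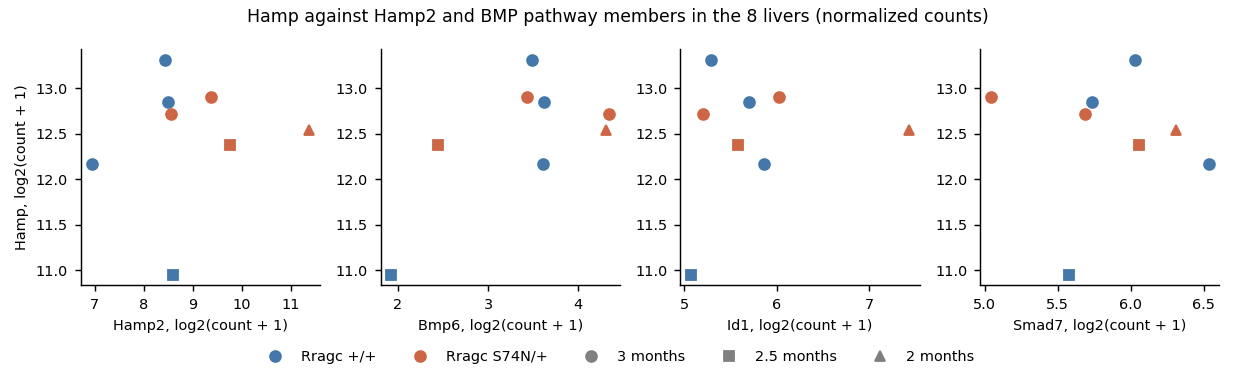
*Hamp* (vertical axis) against *Hamp2*, *Bmp6*, *Id1* and *Smad7* (horizontal axes), all as log2(normalized count + 1), 1 point per liver, with colour for genotype and shape for age. The liver with the lowest *Hamp*, Rragc+/+ replicate 4, also has the lowest *Bmp6* and *Id1*, and the 2-month-old mouse has the highest *Hamp2* and *Id1* with a *Hamp* value inside the range of the others.

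The tested genes whose levels were most like those of *Hamp* over the 8 livers were *Noa1*, *Limk1*, *Tmem161b*, *Nid2* and *Mgat5*, with Pearson's r on the log2 scale from 0.92 to 0.95 and Spearman's rho from 0.57 to 0.90. They are the top 5 of 11173 genes ranked on 8 points that share libraries, and are given as a description. In the same ranking the nearest member was *Bmp6*, at place 520, followed by *Ftl1* at place 1272.

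The ferritin genes varied widely between livers, with the same mice at the low end and the same at the high end for both chains. *Ftl1* encodes the light chain that helps build the iron core and lies on the reverse strand of chromosome 7 from 45457944 to 45459884. Its normalized count was 622, 1135, 1638 and 178 in the Rragc+/+ livers and 3472, 1225, 204 and 3968 in the RragcS74N/+ livers. The highest liver had 22.2 times the lowest, and the lowest liver of each genotype was the 2.5-month-old mouse. The standard deviation of *Ftl1* over the 8 livers, 1.67 on the log2 scale, was above that of 98.97% of tested genes. Its means of 893 ± 632 and 2217 ± 1796 (SD, n = 4 each) correspond to 1.01 ± 0.84 (SE) as log2 fold change (95% interval -0.80 to 2.83, adjusted p in limma = 0.846). Without Rragc+/+ replicate 4 it was 0.38 and without RragcS74N/+ replicate 3 it was 1.93, the 2.5-month-old mice in both cases. Among 3-month-old mice alone it was 0.97.

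*Fth1* encodes the heavy chain, which oxidizes iron for storage, and lies on the forward strand of chromosome 19 from 9980598 to 9985098. It was at 2974, 5736, 4395 and 2022 in the Rragc+/+ livers and at 8048, 5447, 2586 and 8087 in the RragcS74N/+ livers. The same mice held its extremes, with 2.5-month-old mice lowest in each genotype and RragcS74N/+ replicates 1 and 4 highest. The means of 3782 ± 1627 and 6042 ± 2614 (SD, n = 4 each) correspond to 0.65 ± 0.38 (SE) as log2 fold change (95% interval -0.18 to 1.48, adjusted p in limma = 0.846). Among 3-month-old mice alone it was 0.65, and with each liver left out in turn it ran from 0.38 to 1.01.

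*Fth1* and *Ftl1* formed the single pair of the 10 past the adjusted threshold, with an r of 0.95 (exact permutation p = 0.000471, adjusted over the pairs 0.00471) and a rho of 0.90 (exact permutation p = 0.00456, adjusted over the pairs 0.0456). After centring each genotype r was 0.96. Without the 2.5-month-old mice, which lie farthest from the median, r was 0.90 over 6 livers (exact permutation p = 0.0222, adjusted over the pairs 0.222). Both genes followed the first principal component of the tested genes, *Ftl1* with an r of 0.99 and the same order in all 8 livers, and *Fth1* with an r of 0.96. With that component removed from both, the pair no longer passed, at an r of 0.23 (exact permutation p = 0.577, adjusted over the pairs 0.916). *Bmp6* had an r of 0.94 and *Tfrc* one of 0.81 with that component, while *Slc40a1*, *Smad7* and *Hamp2* had 0.012, 0.13 and 0.31. The mean log2 level of the 8 hepatocyte markers also had an r of 0.97 with it, and its part in the ferritin values was not tested. Of all tested genes, 8.56% had an absolute r above 0.9 with it, as 3 of the 10 members did. With the component as a covariate, added after the data were seen, the log2 fold change of *Ftl1* was -0.38, that of *Bmp6* -0.20, that of *Tfrc* -0.21 and that of *Fth1* 0.088.

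*Ftl1* has a near-identical copy in the table, *Ftl1-ps1*, annotated on chromosome 13 from 74399694 to 74407346. The transcripts are 99.6% identical where they align and share an identical run of 524 bases, so reads between them are uncertain. The copy was at 1134, 803, 867 and 844 in the Rragc+/+ livers and at 809, 1062, 934 and 973 in the RragcS74N/+ livers. Its highest liver had 1.41 times its lowest, and its r with the first component was -0.11, so the spread of *Ftl1* was not mirrored in the copy. Summed over both genes the count ran from 1022 in Rragc+/+ replicate 4 to 4941 in RragcS74N/+ replicate 4. Any reads counted for neither gene are missing from this sum, so it cannot settle how reads were shared. What the component reflects was not tested.

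**Figure D3:**
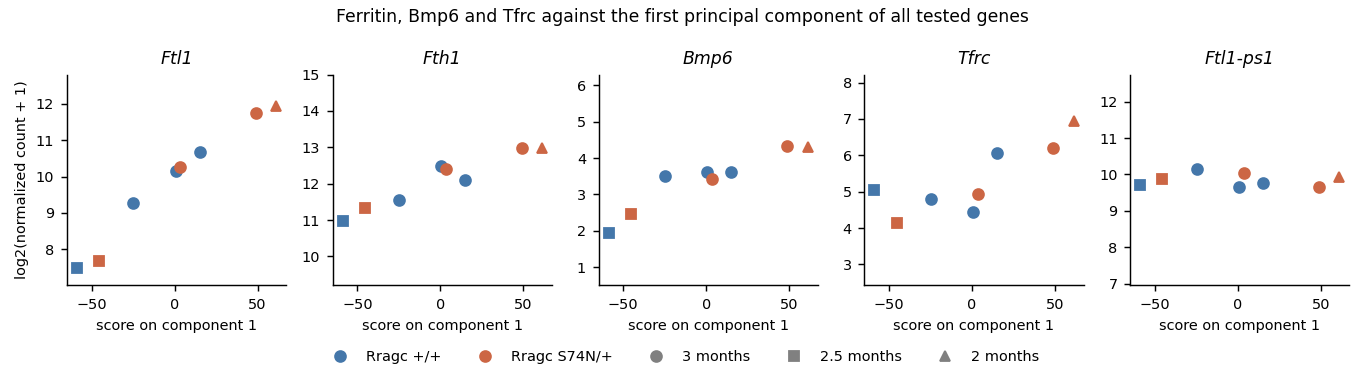
Log2(normalized count + 1) of *Ftl1*, *Fth1*, *Bmp6*, *Tfrc* and *Ftl1-ps1* (vertical axes, each spanning the same number of log2 units) against the score of each liver on the first principal component of the tested genes (horizontal axes, no unit). *Ftl1* climbs in the same order as the score, with the 2.5-month-old mice (squares) at the left in both genotypes, while *Ftl1-ps1* stays level.

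*Tfrc*, which brings transferrin-bound iron into cells, was low in these livers. Its normalized count was 27.0, 20.6, 66.5 and 31.8 in the Rragc+/+ livers and 72.5, 29.3, 16.7 and 123 in the RragcS74N/+ livers. RragcS74N/+ livers held both the lowest and the highest value. The means of 36.5 ± 20.5 and 60.4 ± 48.2 (SD, n = 4 each) correspond to 0.47 ± 0.56 (SE) as log2 fold change (95% interval -0.74 to 1.67, adjusted p in limma = 0.871). Without the 2-month-old mouse it was 0.0022. *Tfrc* and *Fth1* had an r of 0.63 over the 8 livers (exact permutation p = 0.0934) and a rho of 0.55 (exact permutation p = 0.171), which fell to an r of 0.15 without RragcS74N/+ replicates 1 and 4.

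*Trf* encodes transferrin, the plasma carrier made by hepatocytes, and was the most abundant of the genes. It was at 47449, 43160.0, 64316 and 45811 in the Rragc+/+ livers and at 47959.7, 44189, 49304 and 65703 in the RragcS74N/+ livers. In each genotype 3 livers lay close together and 1 lay above them. The means of 50184 ± 9585 and 51789 ± 9525 (SD, n = 4 each) differed by 0.047 ± 0.25 (SE) on the log2 scale (95% interval -0.49 to 0.58, adjusted p in limma = 0.972).

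*Slc40a1*, the only known exporter of iron and the target of hepcidin, was the steadiest of the genes. Its normalized count was 469.8, 458, 574 and 540.0 in the Rragc+/+ livers and 489, 519, 652 and 633 in the RragcS74N/+ livers. The highest values of RragcS74N/+ came from the mice under 3 months. The means of 511 ± 55.8 and 573 ± 81.1 (SD, n = 4 each) correspond to 0.16 ± 0.19 (SE) as log2 fold change (95% interval -0.25 to 0.57, adjusted p in limma = 0.869). Its spread over the 8 livers was larger than that of only 3.81% of tested genes. *Hamp* and *Slc40a1* had an r of -0.14 (exact permutation p = 0.776) and a rho of -0.19 (exact permutation p = 0.665). Kupffer cells, which recycle iron and express ferroportin strongly, had markers that summed to 3029 to 4771 in Rragc+/+ and 3056 to 5069 in RragcS74N/+ livers over 10 genes, none of them at 0. The mean log2 level of this list was 7.50 ± 0.072 in Rragc+/+ and 7.87 ± 0.32 in RragcS74N/+ livers (SD, n = 4 each, exact two-sided permutation p = 0.0286). The closest livers of the genotypes were Rragc+/+ replicate 4, at 7.567, and RragcS74N/+ replicate 3, at 7.571. The markers disagreed, with 7 higher and 3 lower on average in RragcS74N/+ livers, and the summed counts overlapped. The largest log2 fold change of the list was that of *Marco*, at 1.82, the 1 gene of the 10 whose groups did not overlap. None of the 10 passed adjustment in limma. This list too was chosen with earlier results of these data known, so its permutation p adds no independent support. The part of this list in the *Slc40a1* values was not tested.

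By level, *Trf* stood above *Hamp* in every liver, since its lowest value, 43160.0, exceeded the highest of *Hamp*, 10137. Below it, in order of the mean, *Hamp*, *Fth1*, *Ftl1*, *Hamp2* and *Slc40a1* each overlapped the next. *Slc40a1*, at 458 or more in every liver, lay above *Id1*, at 171 or less. *Id1*, *Smad7*, *Tfrc* and *Bmp6* again each overlapped the next, the highest *Bmp6* value of 19.3 exceeding the lowest of *Tfrc*, 16.7. Counts of 3′ ends were compared here between genes without correction for length.

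Across the 10 genes, 0 passed the threshold of 0.05 on the limma p adjusted over all tested genes, where 0.00895% of all tested genes did with limma and with edgeR and 0.0895% with DESeq2. The lowest adjusted p was 0.846 with limma, 0.812 with edgeR and 0.506 with DESeq2, so 0 members passed with any of the tools. At an unadjusted p under 0.05 the count was 1 of 10 with limma, edgeR and DESeq2, against 5.17%, 5.53% and 6.04% of all tested genes. That gene was *Hamp2*, and 2.37% of tested genes passed in its direction, higher in RragcS74N/+ livers. The unadjusted count was 3 of 10 without RragcS74N/+ replicate 3, where 1682 of 11182 tested genes had such a p. It was 3 of 10 among 3-month-old mice, against 640 of 11147 tested genes, and 2 of 10 without Rragc+/+ replicate 2, against 606 of 11194. No member had groups that did not overlap, against 2.94% of tested genes. The mean log2 value was higher in RragcS74N/+ livers for 9 members and lower for 1, where 51.3% of all tested genes were higher. The median log2 fold change of the members was 0.47 against 0.012 over all tested genes. Of the 9, *Ftl1*, *Fth1* and *Bmp6* had an r above 0.9 with the first principal component, on which RragcS74N/+ replicates 1 and 4 scored highest, and its part in the median was not tested.

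**Figure D4:**
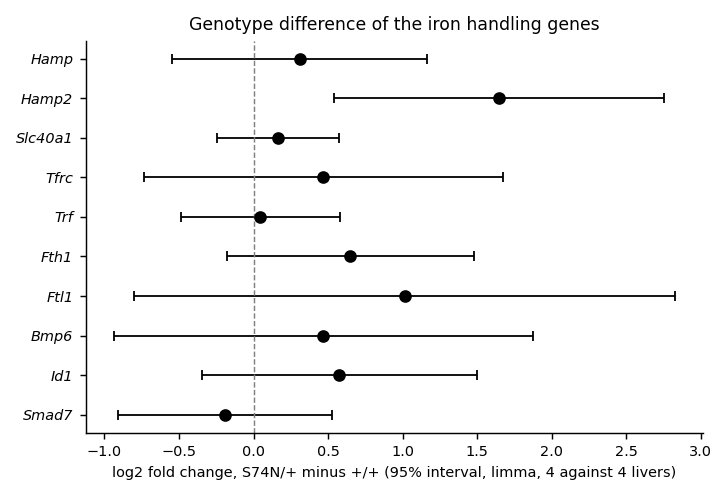
Log2 fold change of each gene, RragcS74N/+ minus Rragc+/+ (horizontal axis, limma on log2(normalized count + 1)), with its 95% interval from 4 against 4 livers, unadjusted for the number of genes. The interval of *Hamp2*, 0.54 to 2.75, is the only one that leaves out 0, and that of *Slc40a1* is the narrowest.

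The rest of the pathway was looked up in 6 lists, in which 86 genes were in the table and 85 were tested. With limma 0 passed adjustment over all tested genes. Unadjusted, 5 genes had a p under 0.05, or 5.88% against 5.17% of all tested genes, and edgeR and DESeq2 on the recovered reads also gave 5 genes each at that level and 0 after adjustment. The unadjusted count depended on single livers, from 1 of 85 without Rragc+/+ replicate 1 to 14 of 85 without RragcS74N/+ replicate 3. It was 1 of 85 with age as a covariate. The count over all tested genes moved with it, at 334 of 11198, 1682 of 11182 and 415 of 11174 in these fits. Groups did not overlap for 3 genes, or 3.53% against 2.94%, which were *Steap2* and *Il6st*, the shared receptor chain of the interleukin 6 family (466 ± 37.7 in Rragc+/+ and 544 ± 38.1 in RragcS74N/+ livers, SD, n = 4 each), both higher in RragcS74N/+ livers, and *Cd163*, lower in them.

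Of 21 genes in BMP-SMAD control of hepcidin, 11 had a higher and 10 a lower mean log2 value in RragcS74N/+ livers, with a median log2 fold change of 0.0096. The most abundant were *Id2*, another BMP target, at 3921 ± 902 and 4289 ± 608, *Tmprss6*, the protease that lowers hepcidin, at 1432 ± 275 and 1342 ± 232, and *Furin*, a convertase that cleaves hepcidin precursors, at 1268 ± 312 and 1028 ± 269 (SD, n = 4 each, Rragc+/+ first). *Eng*, an endothelial BMP co-receptor, was at 244 ± 47.3 and 167 ± 61.3 (SD, n = 4 each), with a limma unadjusted p of 0.0483 and an adjusted p of 0.846. Hemojuvelin, the hepatocyte BMP co-receptor, is listed under its older symbol *Hfe2* and was at 649 in Rragc+/+ and 565 in RragcS74N/+ livers on average, and *Tfr2*, the iron-sensing transferrin receptor, at 762 and 784.

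The 17 genes of the interleukin 6 and acute phase list, which covers the other arm that raises hepcidin, had a median log2 fold change of 0.45, with 14 genes higher and 3 lower on average in RragcS74N/+ livers. None passed adjustment. Of all tested genes, 51.3% were higher in RragcS74N/+ livers. *Saa3*, an inducible serum amyloid, was at 59.3 ± 10.3 and 107 ± 45.5 (SD, n = 4 each), with a limma unadjusted p of 0.0235 and an adjusted p of 0.846. *Fgb*, a fibrinogen chain, was at 19084 ± 4082 and 27019 ± 10638, *Hp*, which binds free hemoglobin, at 7361 ± 658 and 6923 ± 1621, and *Orm1*, a plasma acute phase protein, at 6678 ± 2265 and 5393 ± 2119 (SD, n = 4 each). The mean log2 level of the list was 8.40 ± 0.17 in Rragc+/+ and 8.83 ± 0.46 in RragcS74N/+ livers (SD, n = 4 each, exact two-sided permutation p = 0.0857). It had an r of 0.78 with the first principal component, whose part in these values was not tested.

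Among 11 genes of iron uptake, reduction and release, *Steap2*, a metalloreductase, was at 12.8 ± 5.75 in Rragc+/+ and 37.4 ± 14.5 in RragcS74N/+ livers (SD, n = 4 each), higher in every RragcS74N/+ liver. As log2 fold change this is 1.49 ± 0.42 (SE) (limma unadjusted p = 0.00381, adjusted p = 0.846). *Cd163*, the macrophage receptor for hemoglobin bound to haptoglobin, was at 68.7 ± 34.6 and 33.0 ± 9.94 (SD, n = 4 each), lower in every RragcS74N/+ liver (limma unadjusted p = 0.0227, adjusted p = 0.846). The abundant genes *Cp*, the plasma ferroxidase ceruloplasmin, *Lrp1*, a receptor that clears heme bound to hemopexin, and *Slc39a14*, the hepatocyte carrier of unbound iron, had log2 fold changes of 0.13, -0.13 and -0.17, all within the spread between livers. The median of the list was 0.13.

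The 6 tested genes of ferritin turnover and the iron regulatory proteins all had a higher mean in RragcS74N/+ livers, as did 51.3% of all tested genes on the log2 scale. Their median log2 fold change was 0.28, with 0 genes at an unadjusted p under 0.05. They include *Ireb2*, which encodes iron regulatory protein 2, at 256 ± 24.1 and 268 ± 19.1, and the iron chaperones *Pcbp1*, at 354 ± 175 and 424 ± 248, and *Pcbp2*, at 1049 ± 92.7 and 1130 ± 107 (SD, n = 4 each). The mean log2 level of this list had an r of 0.97 with the first principal component.

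Heme handling, with 16 tested genes, had a median log2 fold change of 0.13, with 9 genes higher and 7 lower. *Alad*, an enzyme of heme synthesis, was at 802 ± 161 and 547 ± 189 (SD, n = 4 each), with a limma unadjusted p of 0.0394 and an adjusted p of 0.846. *Hpx*, the plasma heme carrier, was at 29455 ± 6676 and 28609 ± 6598, and *Fech*, which inserts iron into heme, at 803 ± 75.1 and 680.1 ± 177 (SD, n = 4 each). Of 14 tested genes of mitochondrial iron and iron-sulfur clusters, 8 were higher and 6 lower with a median of 0.050, and 0 had an unadjusted p under 0.05. *Glrx5*, *Bola3* and *Fdx1*, its most abundant genes, had log2 fold changes of -0.065, 0.097 and 0.31.

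**Figure D5:**
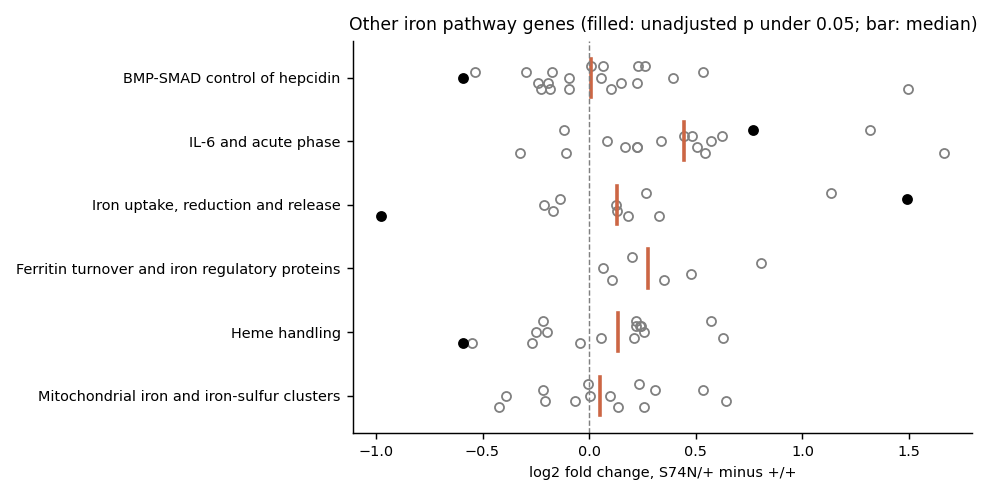
Log2 fold change, RragcS74N/+ minus Rragc+/+ (horizontal axis), of each tested gene in the 6 lists (rows; vertical offsets only separate points). Filled points are the 5 genes with an unadjusted limma p under 0.05 and bars are list medians, from 0.0096 for BMP-SMAD control to 0.45 for interleukin 6 and acute phase.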

How the data were processed

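The deposited signal gives, for each gene in each liver, a normalized read count. The authors prepared 3′ end libraries with QuantSeq, aligned reads to GRCm38 with TopHat2 2.0.10, Bowtie 1.0.0 and SAMtools 0.1.19, allowing 3 mismatches and 20 multiple hits, counted reads by strand with HTSeq 0.6.1 against GENCODE and divided the counts by DESeq size factors. How reads matching several places were counted is not given in the sources used here. All values (100%) were whole multiples (within 0.01) of a single step per liver, taken as the worth of 1 read, with size factors from 0.707 to 1.23. Depth outside listed genes is unknown, and reads without molecular identifiers are not independent molecules.

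Here log2(normalized count + 1) was fitted with limma 3.58.1 (R 4.3.3), with a mean-variance trend and genotype as the only term, where the mean normalized count was 10 or more, with Benjamini-Hochberg adjustment at 0.05. Fold changes on this scale understate the change of low genes. DESeq2 1.42.0 and edgeR 4.0.16 on the recovered reads, other pseudocounts, filters and scaling, age, and leaving out each liver were the alternatives. The limma script was tested on simulated data, where it called 2.08% of genes changed by 1 log2 unit, 78.28% at 2 units and 96.5% at 3. A lack of calls therefore does not exclude changes of about 1 log2 unit. The groups came from the genotype labels. Members and lists were chosen with earlier results of these data known. The text names the members, the 3 most abundant genes of each pathway list, up to 4 genes per list with an unadjusted p under 0.05, and the 5 genes most correlated with *Hamp*. *Hfe2*, *Tfr2*, *Il6st* and *Ftl1-ps1* were added after their values were seen, as were *Rragc* and the examples of marker genes (*Alb*, *Ttr*, *Hba-a2*, *Hbb-bs*, *Kap*, *Gpx3*, *Marco*). Correlations were tested by exact permutation over livers. The mean log2 level of each of the 6 pathway and 7 marker lists was tested by exact permutation of the genotypes, unadjusted for the number of lists. Its p is printed for the kidney, male-biased, Kupffer cell and interleukin 6 lists, and the other lists had a p of 0.143 or more. Coordinates are those of GENCODE M21 and promoters those of RefSeq GRCm38.p6.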

Additional observations from a re-analysis of the deposited data

Results flagged for a closer look

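Among 20 groups of 4 livers, a member and a genotype each, 2 had a liver far from the other 3, where about 1 would by chance. *Hamp2* was at 122 in Rragc+/+ replicate 2, against 343 to 388 in the other Rragc+/+ livers. *Bmp6* was at 2.80 in Rragc+/+ replicate 4, from 3 reads, against 10.3 to 11.3 in the others. Without the first of these livers the log2 fold change of *Hamp2* was 1.26 in place of 1.65, and without the second that of *Bmp6* was 0.056 in place of 0.47.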

How the results depend on the processing

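Members past the threshold numbered 0 under all 11 other settings and in all 8 fits without a liver, as did pathway list genes. Of 186 refitted fold changes of members, 175 kept their direction and 11 reversed, all without a call. *Trf* reversed to -0.032 with age as a covariate, -0.14 in 3-month-old mice, -0.063 with the first component as a covariate, and -0.020 and -0.073 without Rragc+/+ replicate 2 and RragcS74N/+ replicate 4, with 0.17 as the highest value without a liver. *Id1* reversed to -0.0050 in 3-month-old mice, *Hamp* to -0.14 without Rragc+/+ replicate 4 (range without a liver -0.14 to 0.64) and *Smad7* to 0.050 without RragcS74N/+ replicate 2 (-0.37 to 0.050). With the component as a covariate, added after the data were seen, *Tfrc*, *Ftl1* and *Bmp6* were at -0.21, -0.38 and -0.20. All tested genes past the threshold numbered 1, but 0 without the trend, with age as a covariate and in 3-month-old mice (603, 415 and 640 genes at an unadjusted p under 0.05), 10 with DESeq2, and 0 to 2 without a liver, 2 being without RragcS74N/+ replicate 3. Of the pairs, 1 passed (*Fth1* and *Ftl1*), but 0 without the 2 livers farthest from the median, and with the first component removed the 1 that passed was *Tfrc* and *Fth1* in its place. Without the 2 livers, *Id1* and *Hamp* reversed to -0.35, *Smad7* and *Hamp* to 0.45, *Bmp6* and *Hamp* to -0.33, *Id1* and *Smad7* to -0.21 and *Hamp* and *Slc40a1* to 0.062. Centred by genotype, *Smad7* and *Hamp* gave 0.029 and the hepcidins -0.071, and Spearman gave -0.14 for the hepcidins. With the component removed, *Id1* and *Hamp* gave -0.13, *Bmp6* and *Id1* -0.32, the hepcidins -0.038 *Tfrc* and *Fth1* -0.87, *Fth1* and *Ftl1* 0.23 and *Bmp6* and *Hamp* 0.76. The cause was not tested. *Bmp6*, near the filter, was not tested without RragcS74N/+ replicates 1 or 4, and neither it nor *Tfrc* at a mean of 50. No paired analysis was possible because the numbers were given in sample order and link no mice across genotypes.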

Other observations

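The residuals of *Tfrc* and *Fth1* were negatively correlated once the first principal component was removed from both, a step added after the data were seen. That component held 91.7% of the variance of *Fth1* and 66.2% of that of *Tfrc* on the log2 scale, so the residuals describe only the remainder. Pearson's r of the residuals was -0.87 over the 8 livers (exact permutation p = 0.00479, adjusted over the 10 pairs 0.0479) and Spearman's rho was -0.74 (exact permutation p = 0.0458), against an r of 0.63 before. Without Rragc+/+ replicates 2 and 4, farthest from the median in *Tfrc*, r was -0.86 over 6 livers (exact permutation p = 0.0278). The residuals of *Tfrc* ran from -0.90 in Rragc+/+ replicate 2, where that of *Fth1* was 0.37, to 0.82 in Rragc+/+ replicate 4, where that of *Fth1* was -0.12. The permutation does not allow for the fit of the component, which also uses these livers, and the adjustment does not cover the other settings tried.

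The ratio of *Fth1* to *Ftl1* counts, computed after the values were seen, was 4.78, 5.05, 2.68 and 11.3 in the Rragc+/+ livers and 2.32, 4.45, 12.7 and 2.04 in the RragcS74N/+ livers. Both 2.5-month-old mice had the highest ratios, and both livers with the highest component scores had the lowest.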
